A study of Mus musculus with 6 samples.

Results

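The genes described here are the 9 globin genes of the mouse alpha and beta loci. They are Hba-x, Hba-a1, Hba-a2, Hbq1b and Hbq1a at the alpha locus and Hbb-y, Hbb-bh1, Hbb-bs and Hbb-bt at the beta locus. They were found by matching the Ensembl gene identifiers of the count table to gene symbols, and they are 9 of the 48709 genes in the table. All 9 passed the filter on low counts and are among the 12722 genes tested. All libraries came from G1E-ER4, a mouse line labelled immature erythroblasts and made from G1E cells by transfection of a GATA-1-ER construct. Tamoxifen binds the estrogen receptor portion of the encoded protein, and its GATA1 portion then acts in the nucleus. In the CHD4-APR group, cells received a peptide that copies an aggregation-prone region from the C-terminus of the chromatin remodeler CHD4. In the CTRL group, they received a stretch of alanines, and both peptides carried the Tat sequence for entry into cells. Each peptide was given at 10 μM, tamoxifen was added after 2 h, and the cells of both groups were collected after 28 h in tamoxifen. The tamoxifen concentration is 100 nM in the growth protocol and 100 μM in the text on the design. Each group had 3 libraries of polyadenylated RNA from this single line, and cells without tamoxifen were not analysed here. The labels do not say whether replicates came from separate cultures, so the p-values measure the spread between these libraries, which may be technical.

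Hemoglobin is a tetramer of alpha-like and beta-like globin chains, each of which holds a haem group. In the mouse, the primitive red cells of the early embryo use Hba-x (zeta), Hbb-y (epsilon-y) and Hbb-bh1 (beta-h1) together with the adult alpha chains, and definitive red cells use Hba-a1 and Hba-a2 with Hbb-bs and Hbb-bt. Hbq1b and Hbq1a encode theta chains, whose part in hemoglobin is not well known. In erythroid cells GATA1 drives the adult globin genes, while the NuRD complex, which contains CHD4, is known as a repressor of embryonic and fetal globin genes. The comparison therefore asks which globin transcripts differ after a peptide taken from CHD4, in cells in which GATA1 has been switched on.

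Both adult pairs are close copies, which bears on how their reads were assigned. The coding sequences of Hba-a1 and Hba-a2 differed at 1 of 426 aligned bases, and those of Hbb-bs and Hbb-bt at 1 of 441. Of all 50-base words of the main transcript, 67.5% for Hba-a1, 86.9% for Hba-a2, 65.8% for Hbb-bs and 58.3% for Hbb-bt also occurred in a transcript of another gene. The share was 39.8% for Hbq1b and 36.8% for Hbq1a, whose coding sequences were 94.3% identical. It was 0.0% for Hba-x, Hbb-y and Hbb-bh1. The treatment of reads that match several genes is not given in the sources used here, so the division of reads within each pair is uncertain, and pair sums are given beside single genes. The reference genome carries Hbb-bs and Hbb-bt, and the beta-globin haplotype of the cell line is not given in the sources used here.

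The promoters of the genes that the results turn on are shown as a description. Without an allowance for gene length and GC content, the adult genes were called lower together, while Hba-x and Hbq1b gave no call. With that allowance, described below, Hba-x and Hbq1b were called and Hba-a1 and Hba-a2 were not. A link of the promoters to these calls was not tested. Each sequence is the 250 bases before the RefSeq gene start on GRCm38.p6, read 5′ to 3′ on the gene's strand. The RefSeq starts differ from those of the GENCODE annotation, which gave the gene spans printed below. All windows shown except that of Hbq1b therefore run into these spans, that of Hba-x the furthest. A promoter was found for 8 of the 9 genes, all but Hbb-bh1. Capitals mark 4 motifs searched on both strands, GATAA of the GATA factors, CACCC of KLF1, the CCAAT box and the TATA box (TATAA). A match on the other strand appears as the reverse complement.
Hba-a1, chr11:32283422-32283671, plus strand: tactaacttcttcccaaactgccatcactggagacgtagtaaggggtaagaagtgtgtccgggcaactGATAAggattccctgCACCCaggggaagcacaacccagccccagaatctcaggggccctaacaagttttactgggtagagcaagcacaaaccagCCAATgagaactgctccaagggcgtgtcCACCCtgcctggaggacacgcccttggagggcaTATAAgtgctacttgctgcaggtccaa
Hba-x, chr11:32276350-32276599, plus strand: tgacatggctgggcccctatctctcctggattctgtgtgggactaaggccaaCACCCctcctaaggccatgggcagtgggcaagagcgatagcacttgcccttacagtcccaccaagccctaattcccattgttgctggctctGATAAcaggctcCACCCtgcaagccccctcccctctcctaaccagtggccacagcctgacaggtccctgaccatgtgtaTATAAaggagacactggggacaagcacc
Hbq1b, chr11:32286714-32286963, plus strand: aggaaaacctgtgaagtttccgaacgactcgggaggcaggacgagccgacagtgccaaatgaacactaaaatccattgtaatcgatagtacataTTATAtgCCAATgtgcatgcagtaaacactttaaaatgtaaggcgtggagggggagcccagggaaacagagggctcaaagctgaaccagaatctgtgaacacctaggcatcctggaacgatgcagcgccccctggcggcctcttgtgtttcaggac
Hbb-bs, chr7:103827929-103828178, minus strand: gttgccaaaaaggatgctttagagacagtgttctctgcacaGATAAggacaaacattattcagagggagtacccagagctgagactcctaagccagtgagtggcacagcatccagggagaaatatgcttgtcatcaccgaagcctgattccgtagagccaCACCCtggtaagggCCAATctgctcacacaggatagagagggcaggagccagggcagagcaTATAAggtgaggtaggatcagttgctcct
Hbb-bt, chr7:103813924-103814173, minus strand: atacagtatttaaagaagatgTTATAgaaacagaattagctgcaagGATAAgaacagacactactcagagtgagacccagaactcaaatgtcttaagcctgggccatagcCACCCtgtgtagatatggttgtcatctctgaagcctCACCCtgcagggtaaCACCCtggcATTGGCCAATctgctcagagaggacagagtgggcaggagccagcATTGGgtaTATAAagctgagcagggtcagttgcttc
Hbb-y, chr7:103853208-103853457, minus strand: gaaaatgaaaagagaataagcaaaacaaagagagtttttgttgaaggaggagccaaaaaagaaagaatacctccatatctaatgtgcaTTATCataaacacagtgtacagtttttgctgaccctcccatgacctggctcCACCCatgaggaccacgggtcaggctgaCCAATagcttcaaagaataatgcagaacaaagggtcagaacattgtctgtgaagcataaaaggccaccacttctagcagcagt
GATAA and CACCC were each found in 6 of the 8 promoters, those of Hba-x, Hba-a1, Hba-a2, Hbb-y, Hbb-bs and Hbb-bt, and in neither theta promoter. Among all 32851 promoters of the same length, GATAA occurred in 22.6%, CACCC in 52.0%, CCAAT in 33.8% and TATAA in 22.8%. CCAAT was found in every globin promoter shown except that of Hba-x. On the gene's strand, TATAA lay 23 to 28 bases before the start in Hba-a1, Hba-x and Hbb-bt and up to 29 bases before it in Hbb-bs. Hbq1b and Hbb-bt each had a match on the other strand, which began 156 and 229 bases before the start, and Hbb-y had none. In Hbb-bt, matches to CCAAT on opposite strands lie next to each other, so that a single capital run holds both. The Hba-a2 promoter was 97.6% identical to that of Hba-a1 and held the same motifs, and that of Hbq1a was 95.6% identical to that of Hbq1b. The promoters of Hbb-bs and Hbb-bt were 71.4% identical, although their coding sequences differed at 1 base. A match describes the letters of this window and does not show that a factor binds there.

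The adult alpha and beta genes were among the most abundant transcripts, and the embryonic genes were detected at low levels in both groups. Levels between genes are compared as normalized CPM per kb, which are counts as CPM after scaling of the libraries by TMM (a trimmed mean of log ratios between libraries), divided by the kilobases of exon. In the CTRL group, Hbb-bs had 32216 ± 1884 CPM per kb (SD, n = 3), Hba-a1 19348 ± 1143, Hbb-bt 16629 ± 630 and Hba-a2 15993 ± 725. The libraries of Hbb-bt and Hba-a2 overlapped on this scale in both groups, so their order is not resolved. The other 5 genes were far lower. Hbb-bh1 had 59.3 ± 6.25 CPM per kb, Hbq1b 38.2 ± 1.53 and Hba-x 12.1 ± 1.04. Hbb-y, with 3.26 ± 1.33 CPM per kb, and Hbq1a, with 2.46 ± 0.314, overlapped. With the CHD4-APR peptide, the order of the genes was the same except that the mean of Hba-a2, 13587 ± 492, stood above that of Hbb-bt, 13324 ± 684, again with overlapping libraries.

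**Figure D1:**
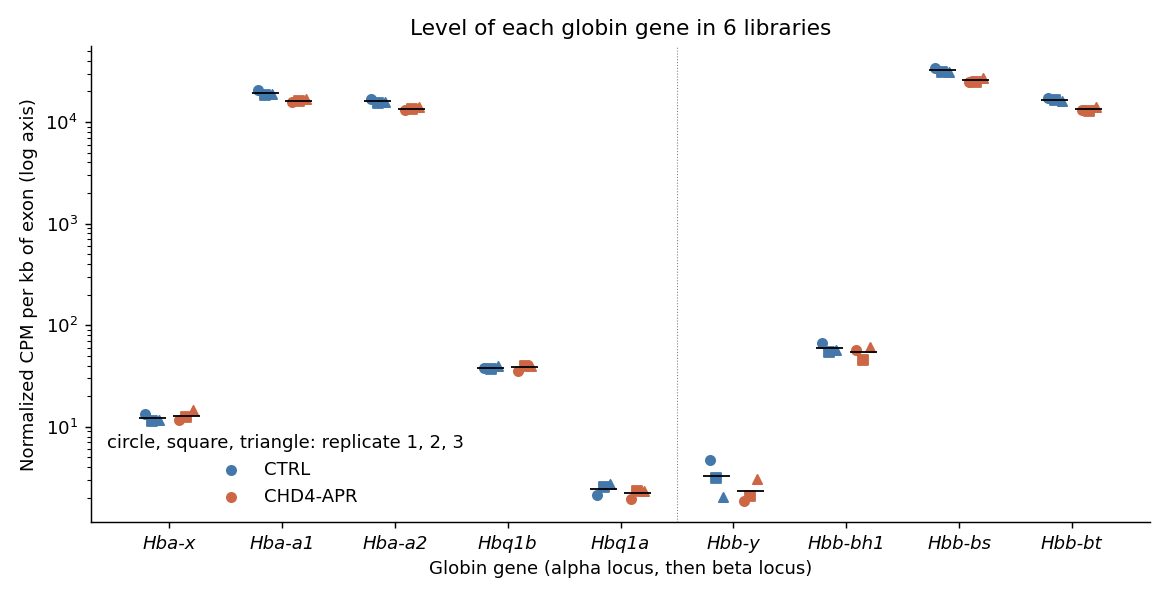
Normalized CPM per kilobase of exon on a log axis for each of the 9 globin genes, with CTRL libraries in blue, CHD4-APR libraries in orange, a different marker for each replicate number and a black line at each group mean. The 4 adult genes stand between 12787 and 34379 CPM per kb, and the other 5 genes stay below 66.5 CPM per kb.

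With TMM scaling, the 4 adult genes fell with the CHD4-APR peptide and no globin gene rose, while an allowance for gene length and GC content, described after the single genes, ended the call for both adult alpha genes and gave a call for Hba-x and Hbq1b as higher. At a false discovery rate (FDR, the p-value of edgeR's quasi-likelihood test after Benjamini-Hochberg adjustment over all genes tested) under 0.05, 4 of the 9 globin genes were called, all lower. Over all genes tested, 38.3% were called, 17.8% lower and 20.4% higher. The groups did not overlap for these 4 genes, as for 49.9% of all genes tested. The median log2 fold change of the 9 globin genes was -0.24, against -0.01 over all genes tested. In RNA from whole cultures, fewer cells that express a gene and less RNA per cell cannot be told apart.

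Hba-a1 (ENSMUSG00000069919, GRCm38 chr11:32283511-32284465, plus strand, 3 coding exons) encodes the adult alpha chain. It had 16757, 14987 and 15388 normalized CPM in CTRL libraries 1 to 3 and 12866, 13104 and 13651 in CHD4-APR libraries 1 to 3. Every CHD4-APR library was below every CTRL library. Its log2 fold change was -0.25 ± 0.05 (SE), a percent change of -15.9, with an FDR of 8.4e-04 by edgeR.

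Hba-a2 (ENSMUSG00000069917, chr11:32296489-32297298, plus strand) is the other adult alpha gene. It had 11202, 10261 and 10540 normalized CPM with the CTRL peptide and 8805, 8951 and 9432 with CHD4-APR. The groups again did not overlap, and CTRL 1 and CHD4-APR 3 were the highest of their groups, as for Hba-a1. This gave a log2 fold change of -0.24 ± 0.05 (FDR = 9.7e-04 by edgeR). When the reads of both alpha genes were summed, the log2 fold change was -0.24. Hba-a1 held 59.5 ± 0.334% of the pair's counts in the CTRL group and 59.3 ± 0.148% in the CHD4-APR group (exact two-sided permutation p = 0.6, where 3 libraries against 3 cannot give less than 0.1).

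Hbb-bs (ENSMUSG00000052305, chr7:103826534-103828096, minus strand, 3 coding exons) encodes an adult beta chain and had the highest level of the 9. It had 26403, 24072 and 23751 normalized CPM with the CTRL peptide and 19233, 19010 and 20952 with CHD4-APR. The groups did not overlap, and CTRL 1 and CHD4-APR 3 were again the highest of their groups. The log2 fold change was -0.33 ± 0.05, a percent change of -20.2 (FDR = 1.7e-04 by edgeR).

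Hbb-bt (ENSMUSG00000073940, chr7:103812524-103813996, minus strand) is the other adult beta gene. It had 12185, 11558 and 11329 normalized CPM with the CTRL peptide and 9203, 8989 and 9908 with CHD4-APR. All CHD4-APR libraries lay below all CTRL libraries. Its log2 fold change was -0.32 ± 0.05, a percent change of -19.9 (FDR = 9.7e-05 by edgeR). The reads of both beta genes summed gave -0.32 as well. Hbb-bs held 67.9 ± 0.461% of the pair's counts in the CTRL group and 67.8 ± 0.149% in the CHD4-APR group (exact permutation p = 0.9).

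Among the embryonic genes, neither a rise nor a fall passed the test with TMM scaling. Hba-x (ENSMUSG00000055609, chr11:32276400-32278116, plus strand), the embryonic zeta gene, had 12.5, 10.7 and 10.9 normalized CPM with the CTRL peptide and 10.98, 11.6 and 13.6 with CHD4-APR. The groups overlapped. Its log2 fold change was 0.09 ± 0.09, with a 95% confidence interval from -0.11 to 0.28 (FDR = 0.51 by edgeR). This estimate rests on 453 to 642 reads per library and was -0.0045 without CHD4-APR replicate 3.

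Hbb-bh1 (ENSMUSG00000052217, chr7:103841637-103843164, minus strand), the embryonic beta-h1 gene, was the more abundant of the embryonic beta genes. It had 40.7, 33.6 and 34.7 normalized CPM with the CTRL peptide and 34.8, 27.7 and 37.7 with CHD4-APR. CHD4-APR 2 was the lowest of the 6 libraries and the groups overlapped. The log2 fold change was -0.12 ± 0.09, with an interval from -0.32 to 0.08 (FDR = 0.34 by edgeR), and it was 0.00029 without CHD4-APR replicate 2.

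Hbb-y (ENSMUSG00000052187, chr7:103851749-103853216, minus strand), the embryonic epsilon-y gene, varied most between replicates. It had 125, 97 and 53 reads in the CTRL libraries, or 2.95, 1.96 and 1.28 normalized CPM, and 53, 56 and 91 reads with CHD4-APR, or 1.19, 1.31 and 1.93 normalized CPM. The groups overlapped, and CTRL 1 was the highest of the 6 libraries. edgeR gave a log2 fold change of -0.48 ± 0.26, with an interval from -1.03 to 0.07 (FDR = 0.16 by edgeR), and it ranged from -0.15 (FDR = 0.71) without CTRL replicate 1 to -0.72 (FDR = 0.034) without CTRL replicate 3. At 53 reads, counting error alone gives a coefficient of variation of 13.7%, while the coefficient between CTRL replicates was 40.7%.

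The theta genes did not pass the test with TMM scaling either. Hbq1b (ENSMUSG00000073063, chr11:32286965-32287784, plus strand), which lies between Hba-a1 and Hba-a2, had 27.7, 26.5 and 28.7 normalized CPM with the CTRL peptide and 25.6, 29.0 and 29.0 with CHD4-APR. Its log2 fold change was 0.01 ± 0.07, with an interval from -0.13 to 0.15 (FDR = 0.90 by edgeR). Hbq1a (ENSMUSG00000020295, chr11:32300069-32300873, plus strand) had 1.27, 1.54 and 1.64 normalized CPM with the CTRL peptide and 1.19, 1.40 and 1.42 with CHD4-APR. Its log2 fold change was -0.15 ± 0.19, with an interval from -0.57 to 0.26 (FDR = 0.57 by edgeR), and it ranged from -0.25 without CTRL replicate 1 to -0.07 without CHD4-APR replicate 1. For both theta genes the groups overlapped. Hbq1b took 94.9 ± 0.608% of the theta reads in the CTRL group and 95.4 ± 0.130% in the CHD4-APR group (exact permutation p = 0.4).

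**Figure D2:**
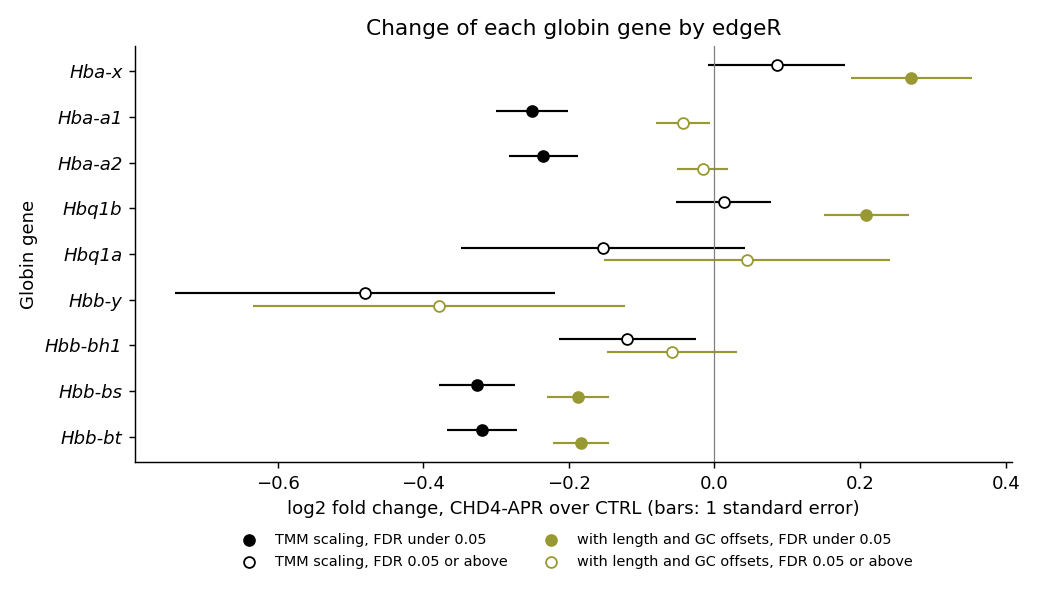
The log2 fold change of each globin gene, CHD4-APR over CTRL, with bars of 1 standard error, in black for TMM scaling and in olive after length and GC offsets, where filled points have an FDR under 0.05. With TMM scaling the 4 adult genes lie between -0.33 and -0.24 and are filled, and with the offsets Hbb-bs, Hbb-bt, Hba-x and Hbq1b are filled.

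The fall of the adult alpha genes was not called once gene length and GC content were allowed for, whereas that of the adult beta genes was. Globin genes are short, between the 6.91 and 11.5 percentiles of exonic length among the genes tested, and the alpha-locus genes are rich in G and C, between the 74.8 and 88.2 percentiles. In each library, each gene's log2 CPM was taken as a deviation from its mean over the 6 libraries. A smooth trend of these deviations on length and GC content was fitted over the genes tested. The deviations include any difference between the groups. Offsets from such trends therefore also take out a response to the peptide that genes of like length and GC content share. The trends differed between the groups by -0.21 for Hba-a1 and -0.22 for Hba-a2, and by -0.14 for both Hbb-bs and Hbb-bt. With these trends as offsets, the log2 fold change was -0.04 for Hba-a1 (FDR = 0.43 by edgeR) and -0.02 for Hba-a2 (FDR = 0.78). It was -0.19 for Hbb-bs and -0.18 for Hbb-bt, with both still called lower. Hba-x, at 0.27 (FDR = 0.023), and Hbq1b, at 0.21 (FDR = 0.014), were then called higher. With the offsets, 16.3% of all genes tested were called lower and 11.8% higher. The fitted trends moved with the groups, and whether they are technical was not tested.

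Other short or abundant genes were also more often called lower than higher with the CHD4-APR peptide, where all genes tested were called lower in 17.8% and higher in 20.4%. With the globin genes left out, 342 of 1560 genes with under 1000 bases of exon (21.9%) were called lower and 71 (4.55%) higher, and their median log2 fold change was -0.18. Of the 94 genes with at least 1000 CPM, 61 (64.9%) were called lower and 6 (6.38%) higher, with a median of -0.16. Among the 14 genes with both properties, 8 (57.1%) were called lower and 0 higher, with a median of -0.16.

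Within each library, the globin transcripts made up a smaller share of all counts in the CHD4-APR group. The 9 genes took 6.45%, 6.05% and 6.07% of the counts with the CTRL peptide and 5.12%, 5.11% and 5.44% with CHD4-APR. The groups did not overlap, with means of 6.19 ± 0.227% and 5.22 ± 0.190% (SD, n = 3). The exact two-sided permutation test gave p = 0.1, the smallest that 3 libraries against 3 allow, and 0.2 after Benjamini-Hochberg adjustment over the 8 shares and ratios tested, so none of these tests could pass 0.05. The share of mitochondrially encoded transcripts overlapped between the groups, at 3.56% to 3.75% in CTRL and 3.57% to 3.70% in CHD4-APR libraries.

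The balance of alpha to beta counts was slightly higher in the CHD4-APR group. The ratio of summed alpha-locus to summed beta-locus counts was 0.725, 0.709 and 0.740 with the CTRL peptide, against 0.762, 0.788 and 0.748 with CHD4-APR. Every CHD4-APR library was above every CTRL library, although CHD4-APR 3 and CTRL 3 were close. On the log2 scale the ratio was -0.47 ± 0.03 in the CTRL group and -0.38 ± 0.04 in the CHD4-APR group, a difference of 0.08 (exact permutation p = 0.1, adjusted p = 0.2). With the length and GC trends removed the difference was 0.15, with the same p.

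Relative to the adult alpha genes, the embryonic gene Hba-x stood higher in the CHD4-APR group. Its counts were 0.0447%, 0.0425% and 0.0422% of those of Hba-a1 and Hba-a2 with the CTRL peptide, against 0.0507%, 0.0527% and 0.0589% with CHD4-APR. The groups did not overlap. The log2 ratio was -11.18 ± 0.05 in the CTRL group and -10.86 ± 0.11 in the CHD4-APR group, a difference of 0.32 (exact permutation p = 0.1, adjusted p = 0.2). The difference was 0.30 with the length and GC trends removed. With TMM scaling Hba-a1 and Hba-a2 were called and Hba-x was not, while with the offsets Hba-x was called and Hba-a1 and Hba-a2 were not, so which side of the ratio moved depends on that choice. The theta gene Hbq1b stood in the same relation to the adult alpha genes, with 0.0992%, 0.105% and 0.111% with the CTRL peptide, against 0.118%, 0.132% and 0.126% with CHD4-APR, a log2 difference of 0.25 (exact permutation p = 0.1, adjusted p = 0.2).

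At the beta locus, the embryonic to adult ratio overlapped between the groups. Hbb-y and Hbb-bh1 together had 0.113%, 0.0998% and 0.103% of the counts of Hbb-bs and Hbb-bt with the CTRL peptide and 0.127%, 0.104% and 0.128% with CHD4-APR. CHD4-APR 2 lay within the CTRL range and the other CHD4-APR libraries above it. The log2 difference was 0.18 (exact permutation p = 0.2, adjusted p = 0.32). It was 0.11 with the length and GC trends removed, and 0.12 to 0.28 without single libraries, the highest without CHD4-APR replicate 2. Whether the alpha and beta loci differ in this shift was not tested.

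**Figure D3:**
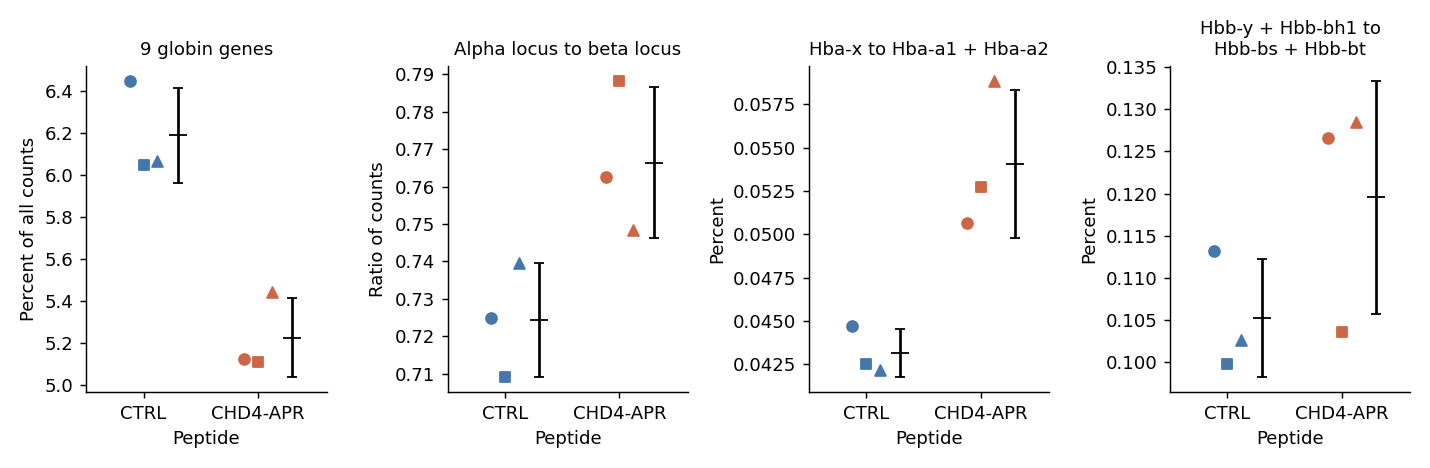
From left to right, the share of the 9 globin genes in all counts (percent), the ratio of alpha-locus to beta-locus counts, Hba-x relative to Hba-a1 and Hba-a2 (percent), and Hbb-y with Hbb-bh1 relative to Hbb-bs and Hbb-bt (percent), with 1 point per library, a different marker for each replicate number, and the mean with SD (n = 3) in black. The vertical axes do not start at 0, and the groups are separate in the first 3 panels and overlap in the last.

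The adult globin genes also varied together between replicates of the same group. After subtraction of the group means from log2 CPM, Hba-a1 and Hba-a2 correlated at 0.98 over the 6 libraries and Hbb-bs and Hbb-bt at 0.97. Across the loci, the 4 pairs of an adult alpha with an adult beta gene correlated at 0.78 to 0.92, lowest for Hba-a1 with Hbb-bt. Hba-x, for which no call was made with TMM scaling, correlated with Hba-a2 at 0.96 within groups. CTRL 1 and CHD4-APR 3 were the highest of their groups for 7 of the 9 genes, all but the theta genes. These are correlations over libraries that share their preparation and scaling, given as a description. Within each adult pair the division of shared reads is uncertain, so the within-pair values may not measure separate genes.

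The 5 other genes whose log2 CPM followed the summed adult alpha pair most closely over the 6 libraries, of 5154 compared at a mean log2 CPM of 5 or more, were Ndufa13, Bud31, Fibp, Josd2 and Uqcr11. Their Pearson correlations with the pair lay between 0.998 and 0.999. Ndufa13 and Uqcr11 encode subunits of respiratory complexes I and III, Bud31 a splicing factor and Josd2 a deubiquitinase. The correlation included the difference between the groups, so the choice itself favored genes that fell with CHD4-APR. The log2 fold changes of the 5 genes ranged from -0.42 for Ndufa13 to -0.23 for Bud31.

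Among the genes that flank the alpha locus, 3 were lower as well. Of the 7 other genes annotated within 100 kb of it, 4 were tested and 3 were called lower, where 17.8% of all genes tested were. Snrnp25, a subunit of the minor spliceosome, had a log2 fold change of -0.28 ± 0.05 (FDR = 2.3e-04 by edgeR), falling from 78.3 ± 1.42 to 64.4 ± 2.30 normalized CPM. Mpg, a DNA repair glycosylase, changed by -0.31 ± 0.07 (FDR = 0.0016). Nprl3, whose introns hold enhancers of the alpha-globin genes, changed by -0.17 ± 0.04 (FDR = 0.0046). The spans of Mpg and Nprl3 overlap, and the counting is not stated to use strand, so their reads may not be separable. Il9r, an interleukin receptor gene, had -0.04 ± 0.08 (FDR = 0.76).

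Around the beta locus, 1 of 19 other annotated genes was tested. This was Dnajc19-ps, a processed pseudogene with 280 reads in the 6 libraries, whose log2 fold change was -0.91 ± 0.26 (FDR = 0.011 by edgeR). The 13 olfactory receptor genes around the locus had 1 read in all. The globin-like genes outside the 9 were near 0. Mb (myoglobin) had 0 reads in every library, Hbb-bh2 had 31 over the 6 libraries and Hbb-bh0 had 16, and none of the 7 in the table passed the filter.

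**Figure D4:**
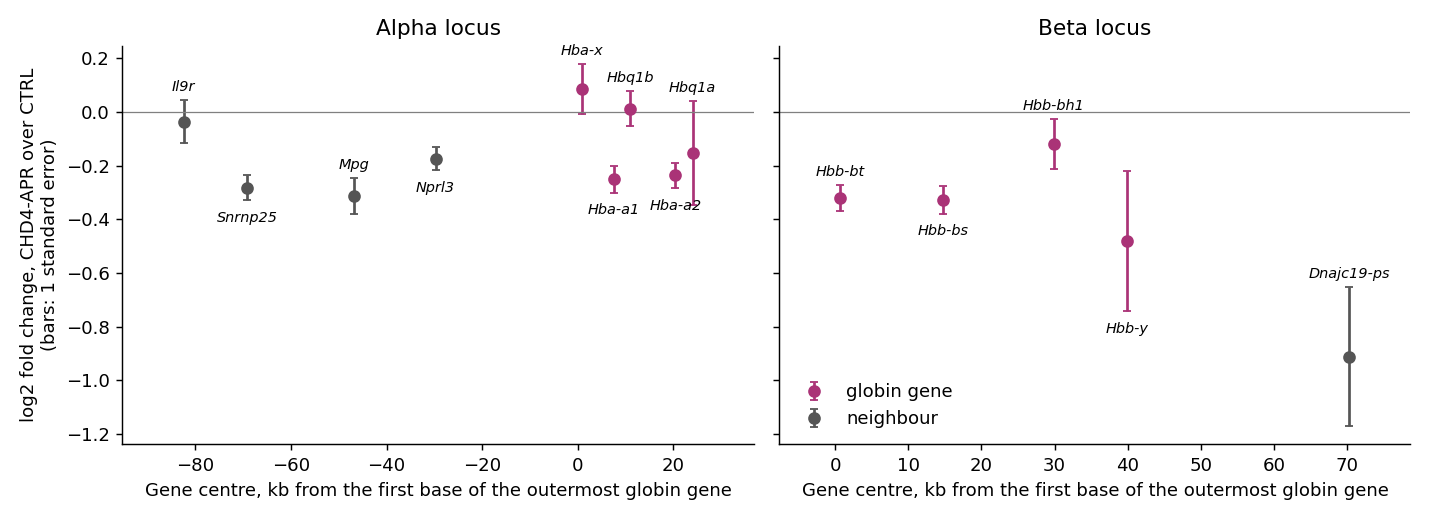
The log2 fold change, CHD4-APR over CTRL, with bars of 1 standard error, of each tested gene within 100 kb of the alpha (left) and beta (right) locus, by the distance of its centre in kb from the first base of the outermost globin gene, with globin genes in purple and neighbours in grey. Snrnp25, Mpg and Nprl3 lie between -0.31 and -0.17, near the adult alpha genes, while Hba-x and Hbq1b lie near 0.

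Hemoglobin also needs haem and iron. Of 17 genes listed for haem supply and hemoglobin assembly, 16 were tested. Over all genes tested, 17.8% were called lower and 20.4% higher, and the counts of this and the next lists are to be read against these shares. In the CHD4-APR group 8 of the 16 were called lower and 2 higher, with a median log2 fold change of -0.14, against -0.01 over all genes tested. Tmem14c, which carries porphyrin precursors into the mitochondrion, fell from 1451 ± 30.9 to 1212 ± 37.8 normalized CPM (log2 fold change -0.26). Alad, an early enzyme of haem synthesis, had -0.24, the ferritin light chain gene Ftl1 -0.23 and the mitochondrial glycine carrier Slc25a38 -0.21. Against this direction, the haem enzyme Cpox rose from 167 ± 24.6 to 272 ± 23.7 normalized CPM (log2 fold change 0.71, FDR = 9.1e-06 by edgeR) and the transferrin receptor gene Tfrc rose by 0.26. The chaperone gene Ahsp has no value here.

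Among 11 activators of globin genes, 4 were called lower and 2 higher, with a median of -0.04. Over all genes tested, the shares were 17.8% lower and 20.4% higher. The fallers were Zfpm1, the GATA1 cofactor FOG1, at -0.23, Nfe2 and Klf1, both at -0.17, and the looping factor Ldb1 at -0.16. Gata1 rose by 0.21 on the log2 scale, from 1608 ± 91.8 to 1859 ± 35.3 normalized CPM, and its reads can come from the fusion construct. Atrx, a chromatin remodeler linked to alpha-globin expression, rose by 0.73, from 69.0 ± 7.15 to 115 ± 7.27 normalized CPM.

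Of 28 repressors of embryonic globin genes, 27 were tested, with 6 called higher, 3 called lower and a median of 0.06. These counts were not far from what the shares over all genes tested, 20.4% higher and 17.8% lower, would give. Nr2c2, an orphan nuclear receptor that binds embryonic globin promoters, rose by 0.40 (FDR = 4.5e-05 by edgeR). Sox6 rose by 0.38 ± 0.14 (SE, FDR = 0.037 by edgeR), with only 105 to 181 reads per library. Gatad2b, a NuRD subunit that contacts CHD4, rose by 0.21, and the NuRD subunit Rbbp4 by 0.19 (FDR = 0.0039 by edgeR). Gatad2a, the paralog of Gatad2b, had -0.16, the NuRD subunit Mbd3 -0.27 and Cdk2ap1 -0.20, all called lower. The log2 fold change of Chd4 itself was 0.05 ± 0.04 (FDR = 0.32 by edgeR). These groups of genes are described by counts and medians, with no test of the group.

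The libraries had 41687482 to 49784177 counts in the CTRL group and 41945739 to 46888804 in the CHD4-APR group. Of 9 erythroid markers, 8 had values, all 8 were tested, 3 were called higher and 1 lower, and their summed level was 8887 to 9491 CPM of the library totals, without TMM scaling, in CTRL and 9820 to 9990 in CHD4-APR libraries. Most of this sum was Slc4a1, the red cell anion exchanger, which was not called (log2 fold change 0.05, FDR = 0.37 by edgeR). The part of these markers in the globin result was not tested. The 6 granulocyte and macrophage markers summed to 8.30 to 9.48 CPM in CTRL and 6.91 to 8.40 in CHD4-APR libraries, with Mpo at 0. Within that list Cd68 was called lower (log2 fold change -0.38, FDR = 0.012 by edgeR). The platelet glycoprotein gene Gp9 was also called lower, from 11.4 ± 0.730 to 9.24 ± 0.585 normalized CPM (-0.31, FDR = 0.0099). Gp9 is from a further marker list, otherwise not reported here, was picked after its value was seen and does not stand for that list. The part of Gp9 and of the granulocyte and macrophage markers in the globin result was not tested. The 5 mast cell markers, the 3 lymphoid and the 3 fibroblast markers each summed to at most 0.616 CPM in any library. The erythroid sum was lowest in CTRL 1, the library with the highest adult globin levels, which also differed most from its replicates (chi-square per degree of freedom 14.4 and 8.85 over all genes, against 4.71 between the other CTRL libraries). Without CTRL 1 the adult genes were still called lower, with log2 fold changes of -0.20 for Hba-a1 and Hba-a2, -0.28 for Hbb-bs and -0.29 for Hbb-bt.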

How the data were processed

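RNA-Seq was done on 3 CTRL and 3 CHD4-APR libraries. The deposited table holds raw counts per Ensembl gene, not normalized. The authors trimmed reads with Cutadapt, aligned them with STAR 2.7.10a to GRCm38 and counted them with featureCounts, per the methods and the submitters' processing notes. The table has 2 further columns, which belong to none of these samples and were left out. Strandedness and the treatment of multi-mapping reads are not given in the sources used here.

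Genes were named and located with GENCODE M21 on GRCm38 (48349 of 48709 identifiers), and promoters came from RefSeq. The counts were filtered with filterByExpr, scaled by TMM and tested over all 12722 genes with edgeR 4.0.16 (quasi-likelihood F test, Benjamini-Hochberg FDR under 0.05, R 4.3.3), with standard errors derived from the F statistic. Normalized CPM use the TMM factors. Shares and ratios were compared by exact permutation of libraries. Alternatives were DESeq2 1.42.0, limma-voom 3.58.1, other scalings and filters, summed pairs, a replicate block, length and GC offsets (mgcv 1.9.3 smooths) and leaving out each library. The shares within Hbb-bs with Hbb-bt and within the theta pair, the Hbq1b ratio, and the short and abundant genes were added after seeing the data. The procedure was tested on simulated data.

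The members and lists were chosen with earlier results of these data known. All 9 globin genes are named, with up to 6 genes called at FDR under 0.05 per list, the largest changes in each direction first, every tested neighbour, and the 5 genes most like the alpha pair. Other genes named (Chd4, Rbbp4, Mb, Hbb-bh2, Hbb-bh0 and single markers) were chosen after their values were seen. A further marker list is not reported here. Each pair of replicates differed by more than sampling noise (chi-square per degree of freedom 4.39 to 14.4). Depth of at least 41687482 counts leaves a counting error of under 0.162% for the adult genes and of up to 13.7% for Hbb-y and Hbq1a, and covers counting error only.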

Additional observations from a re-analysis of the deposited data

How the results depend on the processing

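Hbb-bs and Hbb-bt stayed called lower, with log2 fold changes from -0.37 to -0.19 for Hbb-bs and from -0.36 to -0.18 for Hbb-bt, over all alternatives in which each was fitted. With length and GC offsets, 2 globin genes were called lower and 2 higher, and the same counts, 2 and 2, were found with offsets and the replicate block. With the near-identical pairs summed, 2 of 6 were called, and the count of lower calls was 2, because each pair had become 1 row. The difference in the log2 ratio of alpha to beta counts became 0.15 with the trend removed; the cause was not tested. Without single replicates, the number of globin genes called ranged from 4 to 5, with Hbb-y joining without CTRL replicate 3, and Hbb-y also joined with no filter on low counts (FDR = 0.040 by edgeR). Directions turned only for values that had not passed a test: Hbq1b was -0.0045 under upper quartile scaling, and Hbq1a was 0.045 with the offsets and 0.048 with offsets and block. Without single replicates, Hbb-bs held -0.26 to 0.17 percentage points more of its pair with CHD4-APR (0.17 without CTRL replicate 1), and the log2 fold changes ranged from -0.0045 to 0.16 for Hba-x, from -0.018 to 0.073 for Hbq1b and from -0.21 to 0.00029 for Hbb-bh1.

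Same-numbered libraries correlated in their deviations at 0.070, 0.055 and -0.035, and differently numbered ones at -0.081 to 0.034. These values are all small and do not settle whether the replicate numbers pair the libraries. With the replicate block, 5214 genes were called against 4871 without it, and 4 globin genes in both. Over all genes, 2601 were called higher and 2270 lower, which became 2959 and 1474 with library totals only, 2419 and 2601 under upper quartile scaling, and 1501 and 2070 with the offsets. Scaling by totals moved the median log2 fold change of all genes from -0.012 to 0.033. Depth limits Hbq1a, with 53 to 76 reads per library. For Hbb-y, with 53 to 125, the spread between replicates (coefficients of variation of 40.7% and 26.9%) exceeded the counting error of up to 13.7%.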
